A study of Mus musculus with 12 samples.

Results

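The interferon regulatory factors (IRFs) are transcription factors that bind the interferon-stimulated response element and related GAAA-containing sites through a shared DNA-binding domain. The members described here were the rows whose gene symbol was Irf1, Irf2, Irf3, Irf4, Irf5, Irf7, Irf8 or Irf9, which were 8 of the 16920 genes in the count tables.

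RNA sequencing was done on peritoneal macrophages from mice of the C57BL/6 background, aged 6 to 10 weeks, that were wild type (WT) or labelled as knockouts of Ythdf1, whose protein binds mRNA that carries N6-methyladenosine (KO). The knockout mice were made with CRISPR/Cas9 and lacked Ythdf1 in all cells by design, so effects of the macrophages' own Ythdf1 and of that of other cells in the donor mice cannot be told apart. The cells were drawn into the peritoneum with starch broth per the series record (6%, for 3 days) or with thioglycollate per the study's methods, cultured, and then given PBS, the vehicle, or lipopolysaccharide (LPS, 1 µg/mL, 6 h), a bacterial cell wall component. There were 3 libraries in each of the groups WT PBS, WT LPS, KO PBS and KO LPS. The labels number them as replicates, and the study's methods describe them as independent biological replicates.

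In macrophages, LPS is sensed by the receptor TLR4, whose adaptors MyD88 and TRIF lead to different IRFs. IRF5 is activated on the MyD88 branch and IRF3 on the TRIF branch, where IRF3 switches on interferon beta, and interferon then acts through the ISGF3 complex, which holds STAT2 and IRF9, to raise IRF7 and the antiviral genes. IRF1 is an activator induced by interferon gamma and NF-kappaB, IRF2 its antagonist on shared sites, IRF8 a partner of PU.1 in the myeloid lineage, and IRF4 a factor linked to alternative activation.

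The sequences upstream of the members were searched for 3 motifs that are bound by factors downstream of LPS. These were the gamma-activated site (GAS, TTCNNNGAA, bound by STAT dimers), the core of the interferon-stimulated response element (ISRE, GAAANNGAAA) and the kappaB site of NF-kappaB, all on both strands. The windows were 300 bases long, from 250 bases before to 50 bases after a RefSeq start site (GRCm38.p6), with 11 windows for the 8 members. Matches were found in 3 of them, 1 each for Irf1, Irf2 and Irf8, and these are shown because they hold every match. Capitals mark the matches, each sequence runs 5′ to 3′ on the plus strand, and the windows are chr11:53769764-53770063 for Irf1, chr8:46739495-46739794 for Irf2 and chr8:120736108-120736407 for Irf8.
Irf1: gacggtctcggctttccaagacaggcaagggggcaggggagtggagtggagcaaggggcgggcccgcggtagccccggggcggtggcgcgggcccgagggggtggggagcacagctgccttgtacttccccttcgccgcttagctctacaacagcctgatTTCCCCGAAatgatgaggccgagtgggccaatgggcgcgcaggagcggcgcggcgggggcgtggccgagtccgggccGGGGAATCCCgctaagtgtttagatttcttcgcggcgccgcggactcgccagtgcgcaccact
Irf2: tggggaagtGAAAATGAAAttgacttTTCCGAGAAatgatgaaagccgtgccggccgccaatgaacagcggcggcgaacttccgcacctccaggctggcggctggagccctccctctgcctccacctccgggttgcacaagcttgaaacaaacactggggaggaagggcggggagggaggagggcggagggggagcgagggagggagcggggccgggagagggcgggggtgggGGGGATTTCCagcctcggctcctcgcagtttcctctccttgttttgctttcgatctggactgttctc
Irf8: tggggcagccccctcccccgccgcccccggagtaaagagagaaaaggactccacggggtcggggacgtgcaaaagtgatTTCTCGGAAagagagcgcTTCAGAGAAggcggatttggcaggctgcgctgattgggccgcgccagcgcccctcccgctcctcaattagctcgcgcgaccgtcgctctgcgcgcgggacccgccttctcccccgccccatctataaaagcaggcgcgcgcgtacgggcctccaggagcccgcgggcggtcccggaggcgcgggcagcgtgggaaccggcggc

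Irf1 had a GAS starting 90 bases before the start site and a kappaB match 13 bases before it. Irf2 had an ISRE core 241 bases, a GAS 224 bases and a kappaB match 17 bases upstream. Irf8 had a pair of GAS matches, 171 and 153 bases upstream, and neither of the other motifs. None of these matches overlapped another. A GAS was present in 8.3% of the 32851 promoter windows in the RefSeq table, an ISRE core in 3.44% and a kappaB match in 8.46%. A match describes the letters in these windows and not binding.

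Total counts were 21546274 to 22017005 per library, and 12065 genes, including all 8 members, passed the filter on low counts. Levels are TMM-scaled counts per 1000000 counts (CPM), given as mean ± SD of n = 3 libraries unless single libraries are named. Scaling mattered for PBS against LPS, because the TMM factors were 1.258 to 1.314 in the PBS libraries and 0.744 to 0.808 in the LPS libraries. Ythdf1, the targeted gene, averaged 43.5 ± 1.54 CPM in WT PBS, 57.2 ± 1.53 in KO PBS, 202 ± 9.40 in WT LPS and 198 ± 6.95 in KO LPS libraries. Its mRNA was thus not lower in the KO-labelled libraries, and KO below is the group name given by the labels. Under PBS, Ythdf1 was higher in KO by 0.40 on the log2 scale (edgeR adjusted p = 0.000135). Under LPS the log2 difference was -0.03 (adjusted p = 0.724), and its change with LPS differed between the labels by -0.42 (adjusted p = 0.00179). On principal components the treatment was the leading axis and the genotype label the next one, and replicate 1 of WT LPS and replicate 3 of KO PBS each lay somewhat apart from the other two of their group. All 7 macrophage markers were present, with a summed level of 17120 to 19200 CPM over the 12 libraries.

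The IRFs differed widely in level, and LPS changed which member was most abundant. Between genes, levels were compared as CPM per kilobase of exon. In WT PBS libraries, Irf5 led with a mean of 56.7 CPM per kilobase, followed by Irf7 with 29.2 and Irf8 with 20.4. Irf9 (7.39), Irf2 (7.02) and Irf3 (6.95) lay close to each other, Irf1 stood at 4.002, and Irf4 was lowest at 0.686. The KO PBS libraries again had Irf5 first, with 59.9 CPM per kilobase, followed by Irf8 with 21.1 and Irf7 with 11.8. With LPS, Irf7 led in both genotype labels, at 631 CPM per kilobase in WT and 714 in KO. Irf5 came second in both, at 183 and 198. Irf8 ranked 3 of 8 in WT LPS, at 94.5 CPM per kilobase, and 6 of 8 in KO LPS, at 29.3.

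The 8 members summed to 132 ± 3.54 CPM per kilobase in WT PBS, 119 ± 5.54 in KO PBS, 1061 ± 38.0 in WT LPS and 1093 ± 44.8 in KO LPS libraries. Irf5 made up 42.8% ± 0.911 of the sum in WT PBS and 17.3% ± 2.16 in WT LPS libraries. Irf7 went the other way, from 22.1% ± 1.61 to 59.4% ± 2.61. In the KO-labelled libraries, the share of Irf7 was 9.82% ± 3.11 with PBS and 65.3% ± 1.23 with LPS. The share of Irf8 was 15.4% ± 0.471 in WT PBS and 17.8% ± 0.727 in KO PBS libraries. It was 8.91% ± 0.480 in WT LPS and 2.68% ± 0.217 in KO LPS libraries. Shares are bound to add up to the whole, so a rise of 1 member lowers the others' shares.

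**Figure D1:**
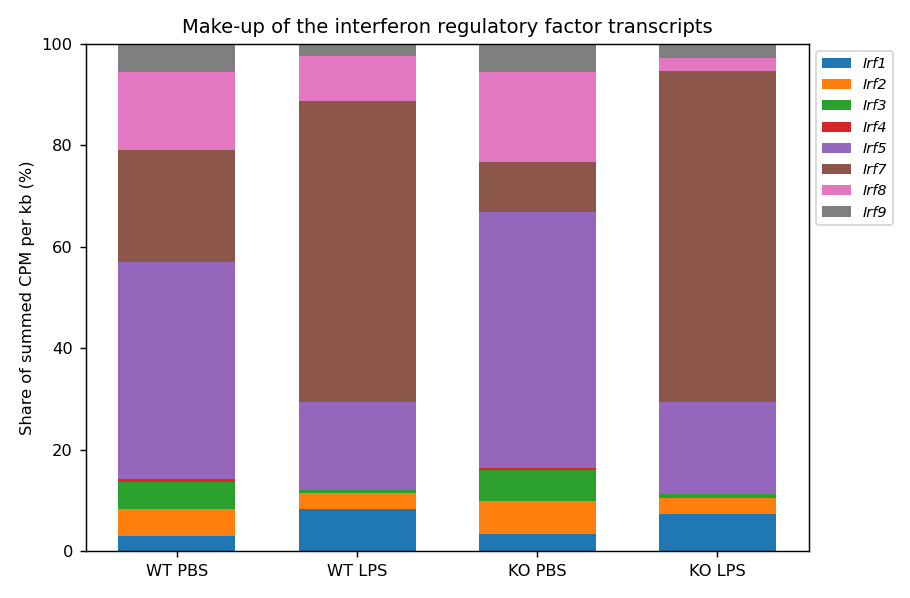
Stacked bars of the mean share of each IRF in the summed CPM per kilobase (percent, n = 3 libraries per group) in WT PBS, WT LPS, KO PBS and KO LPS libraries. Irf5 is the largest share in both PBS groups (42.8% and 50.4%), Irf7 in both LPS groups (59.4% and 65.3%), and Irf8 is 8.91% in WT LPS but 2.68% in KO LPS.

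To see how each member responded to LPS, the LPS and PBS libraries were compared within each genotype label with edgeR's quasi-likelihood test, with p-values adjusted by the Benjamini-Hochberg method over all 12065 genes. In WT, 6 members rose (Irf1, Irf2, Irf5, Irf7, Irf8 and Irf9), Irf4 fell, and Irf3 did not pass the threshold of 0.05. Over all genes tested in WT, 36.5% rose and 40.2% fell, 76.7% in all. The groups were free of overlap for all members but Irf3, 7 of 8, and for 78.2% of all genes. In KO, the same 6 members rose and Irf4 fell, where 38.8% of all genes rose and 41% fell, 79.8% in all, and the groups were free of overlap for all 8 members and for 81.3% of all genes. The median log2 fold change of the members was 1.98 in WT and 1.94 in KO, against -0.05 and -0.04 over all genes. These are bulk values, in which a change in RNA per cell and a change in the number of cells of a type cannot be told apart.

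Irf1, the activator induced by NF-kappaB and interferon gamma, stood at 15.51, 14.95 and 17.26 CPM in WT PBS libraries 1 to 3 and at 325, 348 and 367 in WT LPS libraries. In KO it stood at 15.3, 15.4 and 16.6 CPM with PBS and at 319.7, 319.6 and 305 with LPS. All 6 LPS libraries lay far above all 6 PBS libraries. The log2 fold change with LPS was 4.44 ± 0.0736 (SE) in WT (edgeR adjusted p = 5.87e-18) and 4.32 ± 0.0733 in KO (adjusted p = 5.81e-18), or 21.8-fold and 20.0-fold. Of the 3976 exonic bases of Irf1 (gene 16362, chr11:53770014-53778374, plus strand), 3.40% are shared with the antisense gene Gm17334. Whether the library kit kept the strand is not given in the sources used here, so reads from such shared bases cannot be told apart. The like share was 2.56% for Irf3 (with Bcl2l12) and 1.19% for Irf7 (with Phrf1), both on the opposite strand.

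Irf7, the amplifier of the interferon response (gene 54123, chr7:141263183-141266499, minus strand), had the highest level of all members with LPS. It stood at 112, 119 and 99.4 CPM in WT PBS and at 2167, 2476 and 2504 in WT LPS libraries. In KO it stood at 30.2, 41.2 and 62.1 CPM with PBS and at 2735, 2827 and 2526 with LPS. The KO PBS libraries were the lowest of all and spread the most for their level. Irf7 rose with LPS by 4.43 ± 0.224 on the log2 scale in WT (edgeR adjusted p = 8.53e-09, 21.6-fold) and by 5.92 ± 0.241 in KO (adjusted p = 1.07e-09, 60.6-fold). The levels with LPS were close in both labels, so the larger fold in KO went with the lower level under PBS.

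Irf2, Irf5 and Irf9 rose by smaller amounts in both labels. Irf2, the antagonist of IRF1 (gene 16363, chr8:46739745-46847458, plus strand), ranged from 49.2 to 57.0 CPM over the 6 PBS libraries and from 239 to 259 over the 6 LPS libraries. Its log2 fold change was 2.24 ± 0.0624 in WT (adjusted p = 3.09e-15) and 2.16 ± 0.0622 in KO (adjusted p = 3.85e-15). Irf5, the factor of the MyD88 branch (gene 27056, chr6:29526130-29541869, plus strand), ranged from 162 to 176 CPM with PBS and from 499 to 596 with LPS. Irf5 rose by 1.69 ± 0.0628 in WT (adjusted p = 1.48e-13) and by 1.72 ± 0.0629 in KO (adjusted p = 1e-13). Of its exonic bases, 14.1% are shared with Tnpo3 on the opposite strand, and its deposited values carried decimals in all 12 libraries, so its level is uncertain to that extent.

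Irf9, the DNA-binding subunit of ISGF3 (gene 16391, chr14:55603985-55610030, plus strand), stood at 41.4, 38.7 and 39.2 CPM in WT PBS and at 137, 129 and 134 in WT LPS libraries. In KO it stood at 30.7, 35.4 and 40.2 CPM with PBS and at 160, 164 and 159 with LPS. The 3 KO LPS libraries were the highest of all, and the PBS libraries of both labels overlapped. Irf9 rose by 1.75 ± 0.0774 in WT (edgeR adjusted p = 1.70e-12, 3.35-fold) and by 2.18 ± 0.0784 in KO (adjusted p = 7.96e-14, 4.54-fold). Of its exonic bases, 2.28% are shared with Rnf31 on the same strand. The deposited values of Irf9 carried decimals in 9 of the 12 libraries, so its level is uncertain to that extent. Those of Irf2 carried decimals in 2 libraries.

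Irf8, the myeloid lineage factor and partner of PU.1 (gene 15900, chr8:120736358-120756694, plus strand), was the member whose response to LPS differed most between the labels with all libraries and TMM scaling. It stood at 149, 140 and 143 CPM in WT PBS and at 657, 705 and 639 in WT LPS libraries. In KO it stood at 147, 150 and 149.8 CPM with PBS and at 200.5, 202 and 216 with LPS. The PBS libraries of both labels overlapped, and every WT LPS library lay far above every KO LPS library. Irf8 rose with LPS by 2.21 ± 0.0575 in WT (edgeR adjusted p = 1.26e-15, 4.63-fold). In KO it rose by 0.47 ± 0.0558 with TMM scaling (adjusted p = 7.35e-07, 1.39-fold), but this direction rested on the scaling, since library totals alone gave -0.33 and upper-quartile scaling 0.11, the latter not past the threshold. The raw counts were 4212, 4279 and 4227 in KO PBS and 3267, 3309 and 3482 in KO LPS libraries.

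Irf3 and Irf4 were the members that did not rise. Irf3, the factor that TBK1 phosphorylates on the TRIF branch (gene 54131, chr7:44997648-45002848, plus strand), stayed between 22.1 and 30.4 CPM in all 12 libraries. Its log2 fold change with LPS was 0.11 ± 0.0808 in WT (edgeR adjusted p = 0.218) and 0.16 ± 0.0802 in KO (adjusted p = 0.0703), and both signs turned with upper-quartile scaling (-0.20 and -0.19) and with library totals alone (-0.55 and -0.64), past the threshold each time. In KO it passed as higher with RLE scaling (0.19, adjusted p = 0.036) and without KO LPS replicate 3 (0.20, adjusted p = 0.0481). Irf4 (gene 16364, chr13:30749233-30766981, plus strand) was rare, with 53 to 107 counts per PBS library and 7 to 18 per LPS library, above the floor of 3 counts used here. It stood at 3.87, 3.40 and 2.82 CPM in WT PBS and at 0.868, 1.02 and 0.395 in WT LPS libraries. In KO it stood at 2.27, 1.86 and 2.69 CPM with PBS and at 0.921, 1.04 and 1.06 with LPS. Irf4 fell by 2.14 ± 0.254 on the log2 scale in WT (adjusted p = 8.26e-07) and by 1.17 ± 0.257 in KO (adjusted p = 0.000521).

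B cells also express Irf4 and Irf8, so B cell markers were looked at beside Irf4. The 5 of 6 B cell markers in the tables summed to 1.65 to 1.92 CPM in WT PBS and 0.636 to 0.846 in WT LPS libraries. They summed to 1.23 to 1.86 CPM in KO PBS and 0.311 to 0.735 in KO LPS libraries. This sum, in PBS libraries mostly Cd79b, moved with LPS in the direction of Irf4, and its part in the fall of Irf4 was not tested. The plasma cell markers Jchain, Tnfrsf17 and Mzb1 were at or under the floor in every library, whereas Sdc1, the other marker of that list, averaged 126 CPM in WT PBS, 99.5 in WT LPS, 76.4 in KO PBS and 90.1 in KO LPS libraries.

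**Figure D2:**
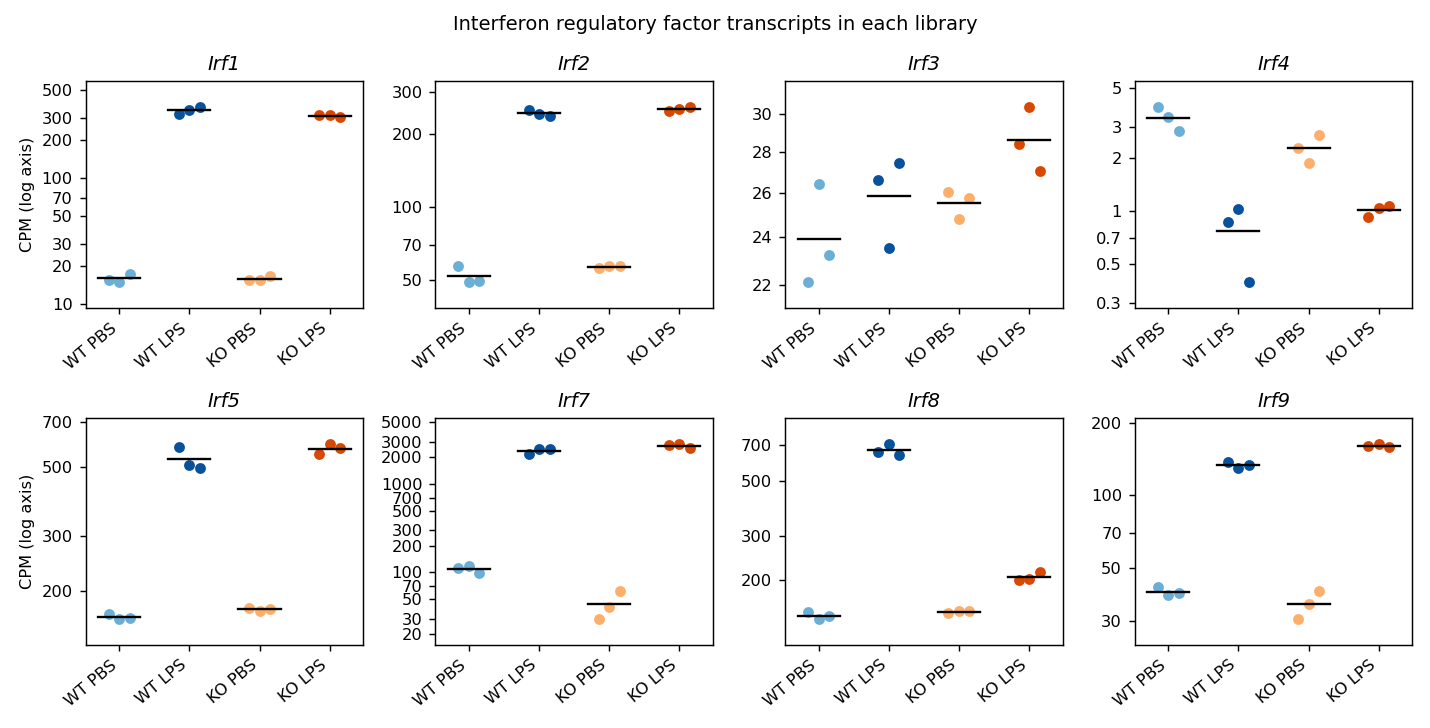
CPM of each IRF (log axis, a scale of its own per panel) in the 12 libraries, grouped as WT PBS, WT LPS, KO PBS and KO LPS, with points for single libraries and lines for group means (n = 3). Irf8 lies at a mean of 667 CPM in WT LPS but 207 in KO LPS, Irf7 at 110.3 in WT PBS but 44.5 in KO PBS, and the direction of Irf3 with LPS and of Irf8 with LPS in KO depends on the scaling.

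**Figure D3:**
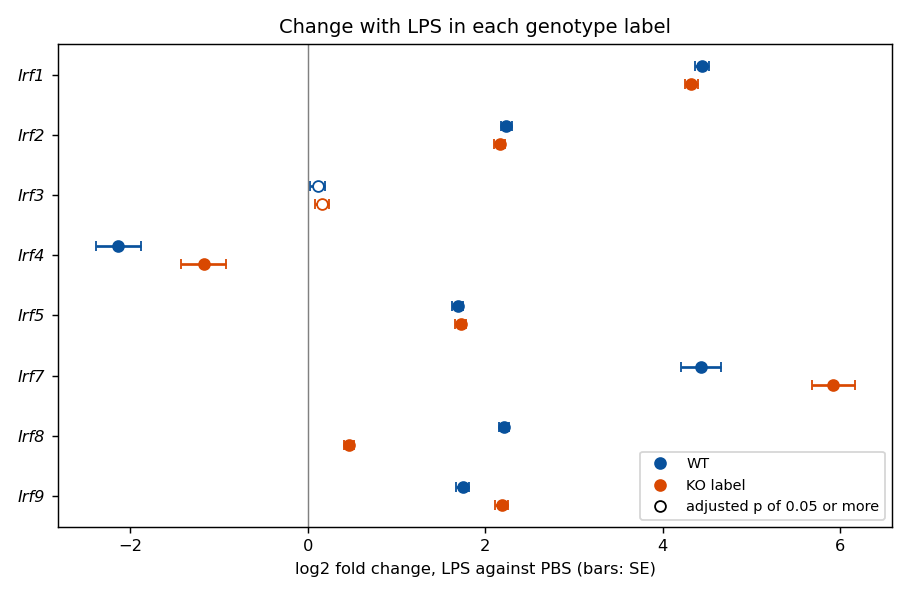
Log2 fold change of each IRF, LPS against PBS, in WT (blue) and KO (orange), with bars of 1 SE and open symbols where the edgeR adjusted p was 0.05 or more. Irf1 and Irf7 rose most, Irf4 fell, and Irf8 rose by 2.21 in WT and by 0.47 in KO, the latter turning to -0.33 with library totals alone, while the sign of Irf3 also depends on the scaling.

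To ask which IRFs differed with the genotype label at rest, KO PBS and WT PBS libraries were compared. Irf7 and Irf4 were lower in KO, and the other 6 members did not pass the threshold. Over all genes tested, 25.3% passed it, 12.3% higher and 13% lower in KO, so 2 of 8 members is near the background. The median log2 difference was 0.02 over the members and 0.0003 over all genes. The groups were free of overlap for 3 members (Irf4, Irf5 and Irf7), and for 48.1% of all genes.

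Irf7 averaged 110.3 ± 10.1 CPM in WT PBS and 44.5 ± 16.2 in KO PBS libraries, and the highest KO library (62.1 CPM) lay below the lowest WT library (99.4 CPM). The log2 difference was -1.31 ± 0.205 (edgeR adjusted p = 0.00113), or 2.48-fold lower in KO. The difference was largest without KO PBS replicate 3, the highest of the KO libraries, at -1.61, and the call was kept under all 21 alternatives. Irf4 averaged 3.36 ± 0.524 CPM in WT PBS and 2.28 ± 0.416 in KO PBS libraries, a log2 difference of -0.56 ± 0.187 (adjusted p = 0.037). This call was not stable, since it was lost with DESeq2 (adjusted p = 0.104), with library totals alone (-0.51, adjusted p = 0.0512) and without any 1 of WT PBS replicate 1 (-0.42, adjusted p = 0.198), WT PBS replicate 2 (0.0943), KO PBS replicate 1 (0.115) and KO PBS replicate 2 (0.179).

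The other members under PBS had log2 differences of -0.17 to 0.13. Irf9, which shares the ISGF3 complex with STAT2, averaged 39.8 ± 1.47 CPM in WT PBS and 35.4 ± 4.72 in KO PBS libraries, and its difference of -0.17 ± 0.0779 did not pass the threshold (edgeR adjusted p = 0.133). It did so without KO PBS replicate 3 (-0.25, adjusted p = 0.0295). Irf2 differed by 0.13 ± 0.0614 (adjusted p = 0.14), and passed the threshold without WT PBS replicate 1 (0.23, adjusted p = 0.0142) and with library totals alone (0.18, adjusted p = 0.0325), where it took the place of Irf4 in the count of 2. Irf8 averaged 144 ± 4.47 and 149 ± 1.49 CPM, a difference of 0.05 ± 0.0556 (adjusted p = 0.566). Irf1 (adjusted p = 0.912), Irf3 (0.428) and Irf5 (0.384) likewise did not pass it.

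With LPS, the picture by label was another one. Irf8 was lower and Irf9 higher in KO LPS than in WT LPS libraries, and the other 6 members did not pass the threshold. Over all genes tested, 41.4% passed it, 22.1% higher and 19.3% lower in KO, so 2 of 8 is below the background share. The median log2 difference was 0.13 over the members and 0.0007 over all genes. The groups were free of overlap for 4 members (Irf1, Irf7, Irf8 and Irf9), and for 45.6% of all genes.

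Irf8 averaged 667 ± 34.3 CPM in WT LPS and 207 ± 8.73 in KO LPS libraries. The log2 difference was -1.69 ± 0.0567 (edgeR adjusted p = 5.92e-12), or 3.23-fold lower in KO, and by p-value it ranked 4 of 12065 genes in this comparison. Over all 21 alternatives it lay between -1.78 and -1.65 and stayed past the threshold. The B cell markers summed to 0.636 to 0.846 CPM in WT LPS and 0.311 to 0.735 in KO LPS libraries, ranges that overlapped. Conventional dendritic cells also express Irf8, and their 5 markers summed to 2.28 to 3.33 CPM in WT LPS and 2.86 to 3.67 in KO LPS libraries. The members went both ways, with Zbtb46 at a mean of 1.29 CPM in WT LPS and 0.986 in KO LPS, but Xcr1 at 1.33 and 1.95. Clec9a (0.133 and 0.0613) and, in WT LPS, Flt3 (0.0381, against 0.206 in KO LPS) had means under the floor. That floor of 3 counts was 0.169 to 0.187 CPM in the LPS libraries, so the directions of Clec9a and Flt3 are not read. The macrophage markers summed to 17470 to 19200 CPM in WT LPS and 17980 to 19190 in KO LPS libraries, a sum carried mostly by Lyz2. Of the single macrophage markers, looked at after their values were seen, some had lower means in KO LPS like Irf8, with Mertk at a mean of 233 CPM in WT LPS and 98.3 in KO LPS (-1.24 ± 0.0677, adjusted p = 1.95e-09), Csf1r at 425 and 295, Cd68 at 3695 and 3201, Itgam at 1084 and 1051 and Adgre1 at 1125 and 1084 CPM. Fcgr1 (904 and 951 CPM) and Lyz2 (11150 and 11850 CPM) had higher means in KO LPS. The part of these cell types in the difference of Irf8 was not tested.

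Irf9 averaged 133 ± 3.91 CPM in WT LPS and 161 ± 2.38 in KO LPS libraries, a log2 difference of 0.27 ± 0.0741 (edgeR adjusted p = 0.00778, 1.21-fold). This call was lost with library totals alone (0.18, adjusted p = 0.0515). Irf7 averaged 2382 ± 187 CPM in WT LPS and 2696 ± 154 in KO LPS libraries, a difference of 0.18 ± 0.193 that did not pass the threshold (adjusted p = 0.497). Irf1 averaged 346 ± 21.0 and 315 ± 8.68 CPM, a difference of -0.14 ± 0.0617 (adjusted p = 0.0844), which passed the threshold with upper-quartile scaling (-0.21, adjusted p = 0.0178), library totals alone (-0.23, 0.00998) and at least 10 counts in every library (-0.15, 0.0494). Without WT LPS replicate 1, 4 members passed the threshold in place of 2, with Irf1 lower (-0.18, adjusted p = 0.012) and Irf5 higher in KO (0.19, adjusted p = 0.00406). Irf2, Irf3, Irf4 and Irf5 had adjusted p-values of 0.15 to 0.467 with all libraries.

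**Figure D4:**
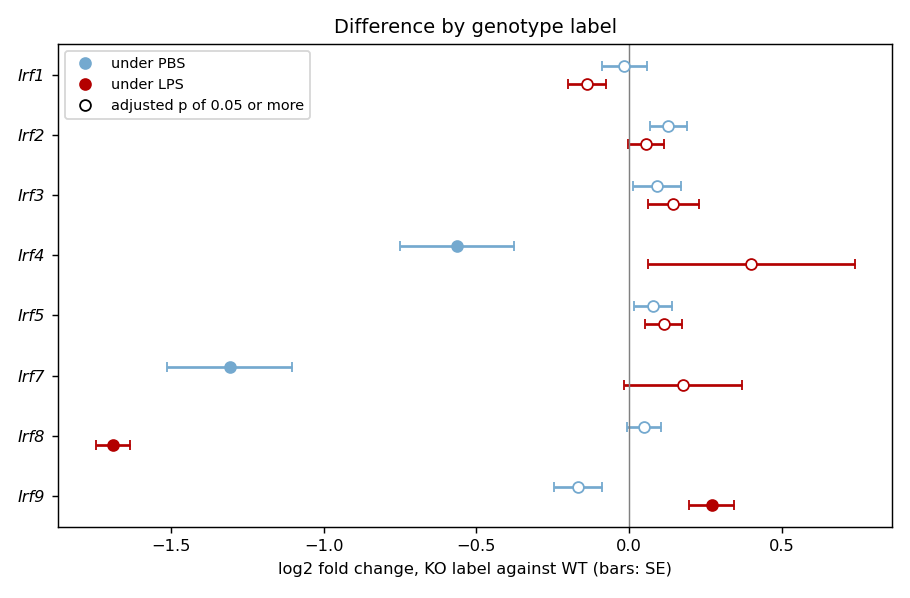
Log2 difference of each IRF between KO and WT libraries under PBS (light blue) and under LPS (red), with bars of 1 SE and open symbols where the edgeR adjusted p was 0.05 or more. Irf7 (-1.31) and Irf4 (-0.56) were lower in KO under PBS, and Irf8 (-1.69) was lower and Irf9 (0.27) higher in KO under LPS.

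Whether the response to LPS itself differed between the labels was tested with the interaction term of the same model. It passed the threshold for 3 of the 8 members (Irf7, Irf8 and Irf9), against 18% of all genes tested, 9.78% more positive and 8.24% more negative in KO. For Irf8 the change with LPS was smaller in KO by 1.74 ± 0.079 on the log2 scale (edgeR adjusted p = 1.41e-09), which ranked 2 of 12065 genes by p-value. For Irf7 it was larger in KO by 1.49 ± 0.281 (adjusted p = 0.0051), and for Irf9 larger by 0.44 ± 0.108 (adjusted p = 0.0103), a call that was lost with library totals alone (0.30, adjusted p = 0.0504). For Irf4 the interaction of 0.96 ± 0.388 did not pass (adjusted p = 0.1), with a large SE beside its low counts. Irf1 (-0.12, adjusted p = 0.421), Irf2 (-0.07, 0.629), Irf3 (0.05, 0.813) and Irf5 (0.03, 0.843) did not pass either.

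The order of the groups therefore differed by member. For Irf7 it was KO PBS, WT PBS, WT LPS and KO LPS from low to high, where the LPS neighbours did not differ past the threshold. For Irf8 it was WT PBS, KO PBS, KO LPS and WT LPS with TMM scaling, where the PBS neighbours did not differ past it, but library totals alone put KO LPS below KO PBS (-0.33, adjusted p = 2.52e-05). For Irf9 it was KO PBS, WT PBS, WT LPS and KO LPS, with the PBS neighbours not differing past the threshold. For Irf4 it was WT LPS, KO LPS, KO PBS and WT PBS, with the LPS neighbours not differing past the threshold. For Irf1, Irf2 and Irf5 both PBS groups lay below both LPS groups, with neither pair of neighbours differing past it.

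Genes of the pathway around the IRFs were described from 5 lists. The upstream list held 17 genes that lead from TLR4 and nucleic acid sensors to the IRFs, of which 12 rose and 5 fell with LPS in WT, and likewise 12 and 5 in KO, beside 76.7% and 79.8% of all genes called in either direction. With library totals alone the split turned, to 7 higher and 8 lower in WT and 6 higher and 9 lower in KO. Its largest rises in WT were the adaptor Myd88 (3.42 ± 0.0562) and the LPS co-receptor Cd14 (3.08 ± 0.0687). Its largest falls in WT were Mavs, the adaptor of the RNA sensors (-1.45 ± 0.0759), and Slc15a4, a lysosomal transporter (-0.81 ± 0.0712). Between labels under PBS, 3 were higher and 4 lower in KO, beside 25.3% of all genes called, led downwards by Ikbke, a kinase of IRF3 and IRF7 (-0.49 ± 0.055, edgeR adjusted p = 8.6e-06). That count of 7 fell to 4 without WT PBS replicate 1 or KO PBS replicate 1, and to 3 without WT PBS replicate 3 or KO PBS replicate 3. Under LPS, 6 were higher and 3 lower in KO, beside 41.4% of all genes called. Cd14 was higher in KO LPS by 0.68 ± 0.0628 (adjusted p = 6.47e-07), and Tmem173, the adaptor STING, was lower by 0.93 ± 0.0689 in KO LPS and by 0.31 ± 0.0679 in KO PBS libraries.

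The list of 13 partners and regulators had 9 genes higher and 3 lower with LPS in WT, and 9 higher and 4 lower in KO, but 6 higher and 6 lower in each label with library totals alone, and 6 and 4 in WT and 7 and 4 in KO with upper-quartile scaling. The shares over all genes were those given for the upstream list. Batf2, an interferon-induced partner of IRF1, rose by 5.72 ± 0.0919 in WT and 5.93 ± 0.095 in KO, and Trim21, a ubiquitin ligase that acts on several IRFs, by 4.26 ± 0.065 and 4.76 ± 0.0656. Irf2bp2, a corepressor of IRF2, fell by 2.16 ± 0.0678 in WT and 2.03 ± 0.0657 in KO. Between labels, 2 were higher and 5 lower in KO under PBS, and 4 were higher and 2 lower under LPS. The count of 7 under PBS fell to 4 without WT PBS replicate 1, WT PBS replicate 3 or KO PBS replicate 1. Irf2bp2 was higher in KO both under PBS (0.36 ± 0.059, edgeR adjusted p = 0.000334) and under LPS (0.49 ± 0.073, adjusted p = 7.12e-05).

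Stat2, the partner of Irf9 in ISGF3, belongs to this list and was looked at by name after its values were seen. It averaged 33.2 ± 1.39 CPM in WT PBS and 26.1 ± 2.15 in KO PBS libraries, a log2 difference of -0.35 ± 0.0826 (edgeR adjusted p = 0.00542). The LPS libraries had means of 544 ± 50.2 CPM (WT) and 559 ± 39.2 CPM (KO), a log2 difference of 0.04 ± 0.0748 that did not pass the threshold (adjusted p = 0.721). Stat2 and Irf9 both had a lower mean in KO under PBS, with Stat2 past the threshold and Irf9 not, and under LPS Irf9 was past it and Stat2 not.

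Of the 11 interferons and receptors, 9 were tested, of which 7 rose and 2 fell with LPS in WT and 8 rose and 1 fell in KO, beside 76.7% and 79.8% of all genes called in either direction. Ifnb1, interferon beta, had no counts in any PBS library and stood at 0.463 to 0.902 CPM in WT LPS and 0.857 to 0.933 in KO LPS libraries. Against the floor of 3 counts per library it was at least 6.52-fold higher with LPS in WT and at least 8.56-fold higher in KO. Jak2, a kinase of the interferon gamma receptor, rose by 4.36 ± 0.0929 in WT and 4.71 ± 0.0934 in KO, and Ifngr1, that receptor's ligand-binding chain, fell by 2.20 ± 0.0785 and 2.02 ± 0.0757. Between labels, 2 were higher and none lower in KO under PBS (Jak2, 0.41 ± 0.0876, and Ifngr1, 0.46 ± 0.069), and 5 were higher and 1 lower under LPS, beside 25.3% and 41.4% of all genes called.

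The known targets were 22 genes that IRFs are known to bind or activate, of which 20 were in the tables and tested. With LPS, 19 of them rose and 1 fell in each label, with a median log2 fold change of 7.03 in WT and 7.54 in KO, beside 76.7% and 79.8% of all genes called in either direction and medians of -0.05 and -0.04 over all genes. The gene that fell was Ciita, the activator of the class II genes, with -1.64 ± 0.229 in WT and -1.01 ± 0.25 in KO. Under PBS, 12 of the 20 were lower and 0 higher in KO, with a median of -0.42 against 0.0003 over all genes, where 13% of all genes tested were lower and 12.3% higher.

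The largest of these differences under PBS were those of Ccl5, a chemokine (-2.03 ± 0.191, edgeR adjusted p = 5.21e-06), and Ifit3, an antiviral gene (-1.05 ± 0.173, adjusted p = 0.000663). Ccl5 stood at 8.35, 8.77 and 7.86 CPM in WT PBS and at 1.36, 1.61 and 3.12 in KO PBS libraries. Ifit3 stood at 10.7, 9.91 and 8.51 CPM in WT PBS and at 3.75, 3.69 and 6.62 in KO PBS libraries. The count of lower targets fell from 12 to 7 without WT PBS replicate 1, and to 5 without KO PBS replicate 1 or without KO PBS replicate 2, with 0 higher each time, and it was 12 without KO PBS replicate 3. Within the KO PBS group, 19 of the 20 targets were highest in replicate 3 and 9 were lowest in replicate 1, with both true of 8. Irf7 and Irf9 were also lowest in replicate 1 and highest in replicate 3, a pattern looked for after the values were seen. The share of all genes with this pattern was not counted, and replicate 3 of KO PBS lay somewhat apart on the principal components.

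Under LPS, 9 of the 20 targets were higher and 1 lower in KO, with a median of 0.29 against 0.0007 over all genes, where 22.1% of all genes were higher and 19.3% lower. The highest differences were those of Il12b, a cytokine gene that IRF8 and IRF1 are known to activate (0.87 ± 0.0926, edgeR adjusted p = 3.12e-06), and Oas2, an antiviral enzyme (0.72 ± 0.0909, adjusted p = 1.39e-05). Il12b stood at 764, 750.3 and 824 CPM in WT LPS and at 1501, 1300 and 1475 in KO LPS libraries, where Irf8 was 3.23-fold lower. Socs1, an inhibitor of interferon signalling, was the 1 target lower in KO LPS (-0.23 ± 0.0672, adjusted p = 0.0113).

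**Figure D5:**
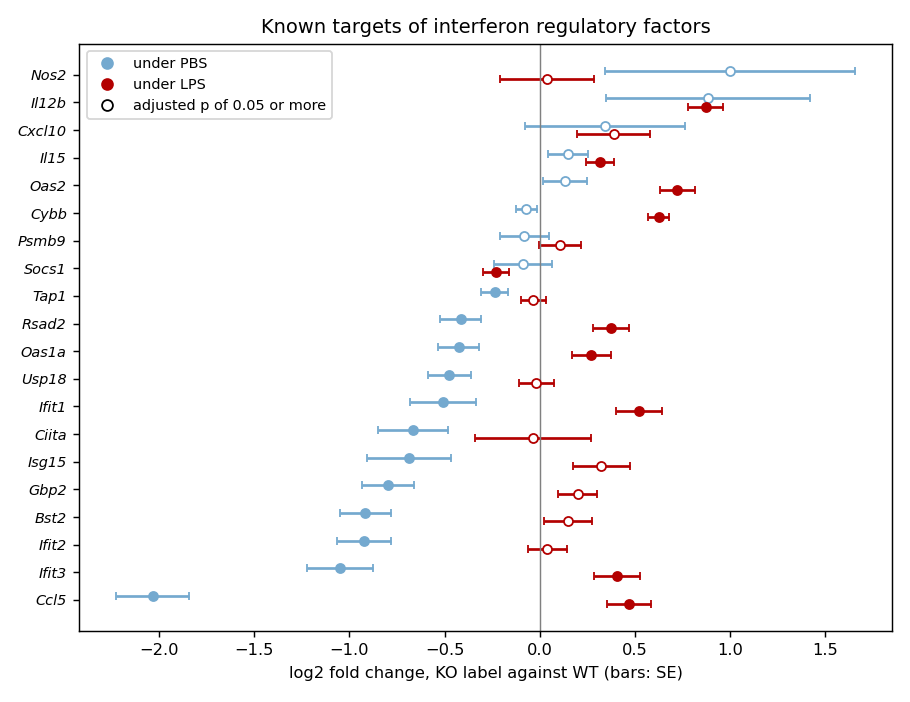
Log2 difference between KO and WT libraries of the 20 known IRF targets tested, under PBS (light blue) and under LPS (red), with bars of 1 SE and open symbols where the edgeR adjusted p was 0.05 or more. Under PBS 12 were lower and 0 higher in KO, and under LPS 1 was lower and 9 were higher.

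The polarisation list held 9 genes of inflammatory and alternative activation that IRF4 and IRF5 are linked to. With LPS, 6 rose and 2 fell in WT, and 5 rose and 1 fell in KO, but 4 rose and 4 fell in each label with library totals alone, and with upper-quartile scaling it was 4 and 2 in WT and 4 and 3 in KO, beside 76.7% and 79.8% of all genes called in either direction. Under PBS 2 were higher and 3 lower in KO, and under LPS 5 were higher and 2 lower, beside 25.3% and 41.4% of all genes. Retnla, a gene of alternative activation, was lower in KO by 1.97 ± 0.228 under PBS and by 1.62 ± 0.245 under LPS. Mrc1, the mannose receptor, was lower by 1.20 ± 0.0831 and by 1.10 ± 0.0848. Chil3, also a gene of alternative activation, was higher in KO by 0.81 ± 0.096 under PBS (edgeR adjusted p = 1.95e-05) and by 0.93 ± 0.0974 under LPS (adjusted p = 2.51e-06). Klf4, a transcription factor, was higher in KO by 0.52 ± 0.0775 under PBS (adjusted p = 0.000163). Il6, an inflammatory cytokine, was higher in KO LPS by 1.56 ± 0.127 (edgeR adjusted p = 9.96e-07), and Il23a by 1.74 ± 0.329 (adjusted p = 0.000737). Setting the list genes that lay at or under the floor in a whole group to their bound changed no median of these lists.

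Genes with a profile most like that of each member were found by the smallest root-mean-square difference of log2 CPM over the 12 libraries, each profile centred on its own mean, among 8722 genes whose mean reached 5 CPM. The points share their libraries and scaling, so these are descriptions. Irf7 was most like Pilra, an inhibitory receptor (difference 0.148 log2, Pearson r = 0.9986), and next Zbp1, a nucleic acid sensor (0.272), and Ehd1 (0.310). Pilra stood at 8.37 to 8.76 CPM in WT PBS, 2.07 to 3.51 in KO PBS, 166 to 175 in WT LPS and 204 to 212 in KO LPS libraries, which is the group order of Irf7. Irf8 had no gene as close, and its nearest were Rab43 (0.324), Tmpo (0.336) and Rubcnl (0.368). Rab43 stood at 235 to 266 CPM in WT LPS and 126 to 150 in KO LPS libraries. Irf1 was most like Pnp (0.0976), Irf2 like Maf (0.0700), Irf5 like Ywhaz (0.0538) and Irf9 like Foxp1 (0.0871), while Irf3 was most like Dnajc14 (0.0670) and Irf4 like Herpud1 (0.256).

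The genes around Irf8 were looked at after its values were seen. Of the 18 tested genes that lie within 1 Mb on either side, 5 differed between KO LPS and WT LPS libraries, all of them lower. Over all genes tested, 41.4% were called in either direction and 19.3% were lower in KO. The 5 of 18 thus lay below the share called in either direction but above the share called lower. Their log2 differences ranged from -0.89 (Foxf1) to -0.26 (Cox4i1), smaller than that of Irf8, and the others were Tldc1 (-0.41), Cotl1 (-0.47) and Gins2 (-0.42).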

How the data were processed

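Expected counts per gene (estimated counts that need not be whole) were deposited by the authors, in 12 tables of 16920 genes with no scaling between libraries. The submitters' processing notes name Bowtie2, RSEM 1.3.1 and build GRCm38.p6, whereas the study's methods name STAR and HTSeq. Reads were single-end and 50 bases long, from a BGISEQ sequencer. Decimals stood in 24.6% to 26.9% of the values of a library, and all values were rounded to whole counts.

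Low counts were removed with filterByExpr and scaling was by TMM (edgeR 4.0.16 and limma 3.58.1, under R 4.3.3). All 12 libraries then entered 1 robust quasi-likelihood fit that gave each group its own mean. Contrasts and the interaction were tested two-sided, with Benjamini-Hochberg adjustment over 12065 genes and a threshold of 0.05. The SE is the absolute log2 fold change over the square root of F. The biological coefficient of variation was 6.99%. On simulated data, with 200 of 12065 genes changed by 1 log2 unit, 94.5% were recovered for KO against WT under LPS and 85.5% for the interaction. The changes were set in KO LPS only, equally up and down, and all other genes had the same mean in every group. The simulation thus held no broad LPS response and did not test the scaling.

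Exon lengths and overlaps came from GENCODE vM21 (GRCm38), for 96.8% of genes. The floor of 3 counts equalled 0.105 to 0.187 CPM and covers counting error only, since reads carried no molecular identifiers. Total counts were 21546274 to 22017005 per library.

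Alternatives were RLE and upper-quartile scaling, library totals alone, no filter, a minimum of 10 counts per library, DESeq2 1.42.0, fits to the compared libraries alone, a block for the replicate number, counts rounded down, and leaving out each library. The genes named were the members, Ythdf1, up to 2 list genes highest and 2 lowest per contrast among those past the threshold, and 3 genes most like each member. Others are said to be chosen after their values were seen. The members and lists were chosen with earlier results of these data known. Raw reads and proteins were not analysed here.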

Additional observations from a re-analysis of the deposited data

Results flagged for a closer look

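The interaction of genotype label and LPS differed from 0 for 3 of the 8 members, against 18% of all genes tested, by edgeR's test of the difference itself. The change of Irf8 with LPS was smaller in KO, with an interaction of -1.74 on the log2 scale, and it came from the LPS libraries, where each WT library was above each KO library. The change of Irf7 was larger in KO by 1.49, beside a lower level in KO PBS libraries. Over the alternatives the interaction ranged from 1.24 to 1.78 for Irf7 and from -1.88 to -1.70 for Irf8, so their sizes overlapped. The change of Irf9 was larger in KO by 0.44, a call that was lost with library totals alone (0.30, edgeR adjusted p = 0.0504). Groups of 3 libraries are too small for a test of single outlying libraries, and none was run.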

How the results depend on the processing

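Of 827 values of 40 single-member results under the alternatives, 786 kept their direction and side of the threshold, 10 lost the threshold, 10 gained it and 21 changed sign; the cause was not tested. The median of all genes shifted with library totals alone by -0.66 (WT) and -0.80 (KO) for LPS against PBS, and with upper-quartile scaling by -0.31 and -0.36, so directions with LPS are relative to the scaling. Irf3 with LPS became -0.20 in WT and -0.19 in KO with upper-quartile scaling and -0.55 and -0.64 with library totals alone, and Irf8 with LPS in KO became -0.33 with library totals alone. Sign changes of values near 0 were those of Irf1 under PBS (0.002 with RLE, 0.0336 with library totals alone, 0.005 with DESeq2, and -0.0579 to 0.0477 over the fits that left out each library, above 0 without WT PBS replicate 3 or KO PBS replicates 1 or 2) and Irf2 under LPS (-0.0113 with upper-quartile scaling, -0.0323 with library totals alone). In the interaction they were those of Irf5 (-0.0103 with upper-quartile scaling, -0.1027 with library totals alone, and -0.0145 to 0.1088 over the fits that left out each library, below 0 without WT PBS replicate 1, WT LPS replicate 3 or KO PBS replicate 2) and Irf3 (-0.0844 with library totals alone, -0.0249 to 0.0988 over the fits that left out each library, below 0 without WT PBS replicate 2 or WT LPS replicate 2).

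The count of members past the threshold between labels under PBS was 2 with all libraries and 1 with at least 10 counts in every library (where Irf4 is not tested), with DESeq2 and with the replicate block, and ranged from 1 to 3 when each library was left out. Under LPS it ranged from 2 to 4, with 4 only without WT LPS replicate 1. Over all alternatives the count ranged from 6 to 8 for LPS in WT and in KO, and from 2 (library totals alone) to 3 for the interaction. Irf7 under PBS (-1.61 to -1.07) and Irf8 under LPS (-1.78 to -1.65) kept their calls under all 21 alternatives. The deviations of same-numbered libraries correlated by -0.076 to 0.127, so the numbers were not read as pairs. With the replicate block, Irf4 under PBS was -0.56 with an adjusted p of 0.0512, and the block changed no other member's call. Of 25 list counts, 7 moved by over 1.5 times under some alternative, 16 of 495 values in all, and the known targets lower in KO under PBS ranged from 5 to 12. Depth limits Irf4, with 7 to 107 counts per library.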
